A study of Mus musculus with 12 samples.

Results

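The interleukins and their receptors were followed in the colon of mice that lack thrombospondin 1 (TSP-1) and of wild type (WT) mice. Members were the array probes annotated with a single gene symbol that begins with Il and a digit, with 1 gene left out by the rule. This gave 79 probes for 75 genes, out of 19938 genes that have a probe with a single symbol. By role, 36 probes belong to ligands, 37 to receptors, 5 to inhibitors (a receptor antagonist, binding proteins and decoy receptors) and 1 to an antisense RNA of Il1b. Il17rd and Il22ra1 have 2 probes each and Il20rb has 3. Il1r1, Il22 and Il2rg have no probe among the members and were not analysed here.

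Colon RNA was hybridised to Affymetrix MoGene 1.0 ST arrays, with 3 arrays in each of 4 groups, which the labels call biological replicates. The groups were TSP-1-/- mice given azoxymethane and dextran sulfate sodium (AOM/DSS), WT mice given AOM/DSS, TSP-1-/- mice on water and WT mice on water, all of the C57BL/6 strain. AOM is a colon carcinogen and DSS is a polymer that injures the colonic lining when drunk. By the study's methods, treated males were 7 weeks old at the start, received a single dose of 10 mg/kg AOM and 4 cycles of 1.5% DSS of 7 days each, and were killed 15 weeks after AOM. The methods give this age and sex for all mice of the study, and the labels of the water arrays describe the protocol of another DSS experiment. The TSP-1-/- allele is a mutation of part of the gene in every cell of the animal, so its transcript can still be measured. The treated samples are described as tumors in one source and as diseased colonic tissue in another, and the tumor share of each sample is not known.

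Interleukins are secreted proteins through which leukocytes, epithelium and stroma signal to each other. Members of the IL-1 and IL-17 families signal through adaptor proteins to NF-kB, and most others signal through JAK kinases and STAT transcription factors. In the colon, IL-1 and IL-23 drive inflammation with many neutrophils, IL-17 and IL-22 act on the epithelium, IL-10 restrains inflammation, and IL-4 and IL-13 belong to type 2 responses. RNA from whole tissue does not separate more cells of a type from more RNA per cell.

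Values are log2 units relative to a per-probe baseline, so an array is read against the other arrays of its set and never one gene against another. The genotypes were compared inside each array set by limma, in a fit that holds all 4 groups. Calls required a difference of at least 2-fold and a p under 0.05 after Benjamini-Hochberg adjustment over all probes. Array replicate 3 of the TSP-1-/- AOM/DSS group had an SD over all probes of 0.753, against 0.293 to 0.453 on the other 11 arrays. On this array the median of 8 pancreatic enzyme genes was 6.01, against -0.17 to 0.02 on the other 5 AOM/DSS arrays, and the median of 10 T cell markers was 2.79, against -0.08 to 0.47. TSP-1-/- water replicate 1 also stood apart, with a pancreatic list median of 1.22 against -0.02 to 0.07 on the other 5 water arrays. Members that rest on these arrays are given with and without them. WT AOM/DSS replicate 1 lay over 1 log2 unit above the mean of the other WT AOM/DSS arrays at 1.90% of all probes. By the same measure TSP-1-/- AOM/DSS replicate 3 had 3.19% and TSP-1-/- water replicate 1 had 0.944%. Among the members, WT AOM/DSS replicate 1 lay this far above at Il1b, Il18 and Il1r2. Thbs1, the mutated gene, read 0.81, 0.85 and 0.93 on TSP-1-/- AOM/DSS arrays, against 0.27, -0.16 and -0.07 on WT AOM/DSS arrays (adjusted p 0.073 by limma). It therefore does not check the genotype labels. Of 14 colon epithelium genes, Car1 was called lower in TSP-1-/- AOM/DSS colons. Of the 14, 13 had a negative difference (median -0.50, against 0.127 over all probes), and the genotypes did not overlap at 8 that were lower (57.1%, against 10.7% of all probes).

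Within the AOM/DSS arrays, 5 of the 79 interleukin probes were called higher in TSP-1-/- colons (6.33%, where 1.73% of all 28853 probes were called higher), and 0 were called lower (1.05% of all probes were, and 2.78% in either direction). The 5 were Il1b, Il1f9, Il13ra2, Il10ra and Il23a. At an adjusted p under 0.05 with no fold minimum, 9 probes were higher (11.4%, where 5.38% of all probes were). At an unadjusted p under 0.05 in the limma fit there were 35 in either direction (44.3%, where 32.3% of all probes were). The difference was positive for 70 probes (88.6%, against 62.8% of all probes), with a median of 0.38 log2 units over the members and 0.127 over all probes. After the arrays were scaled again the median over all probes was 0.018, 0.020 or 0.052 and that over the members 0.21, 0.25 or 0.30. The 2 genotypes did not overlap at 29 probes that were higher in TSP-1-/- colons (36.7%, against 20.2% of all probes) and at 4 that were lower (5.06%, against 10.7% of all probes).

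**Figure D1:**
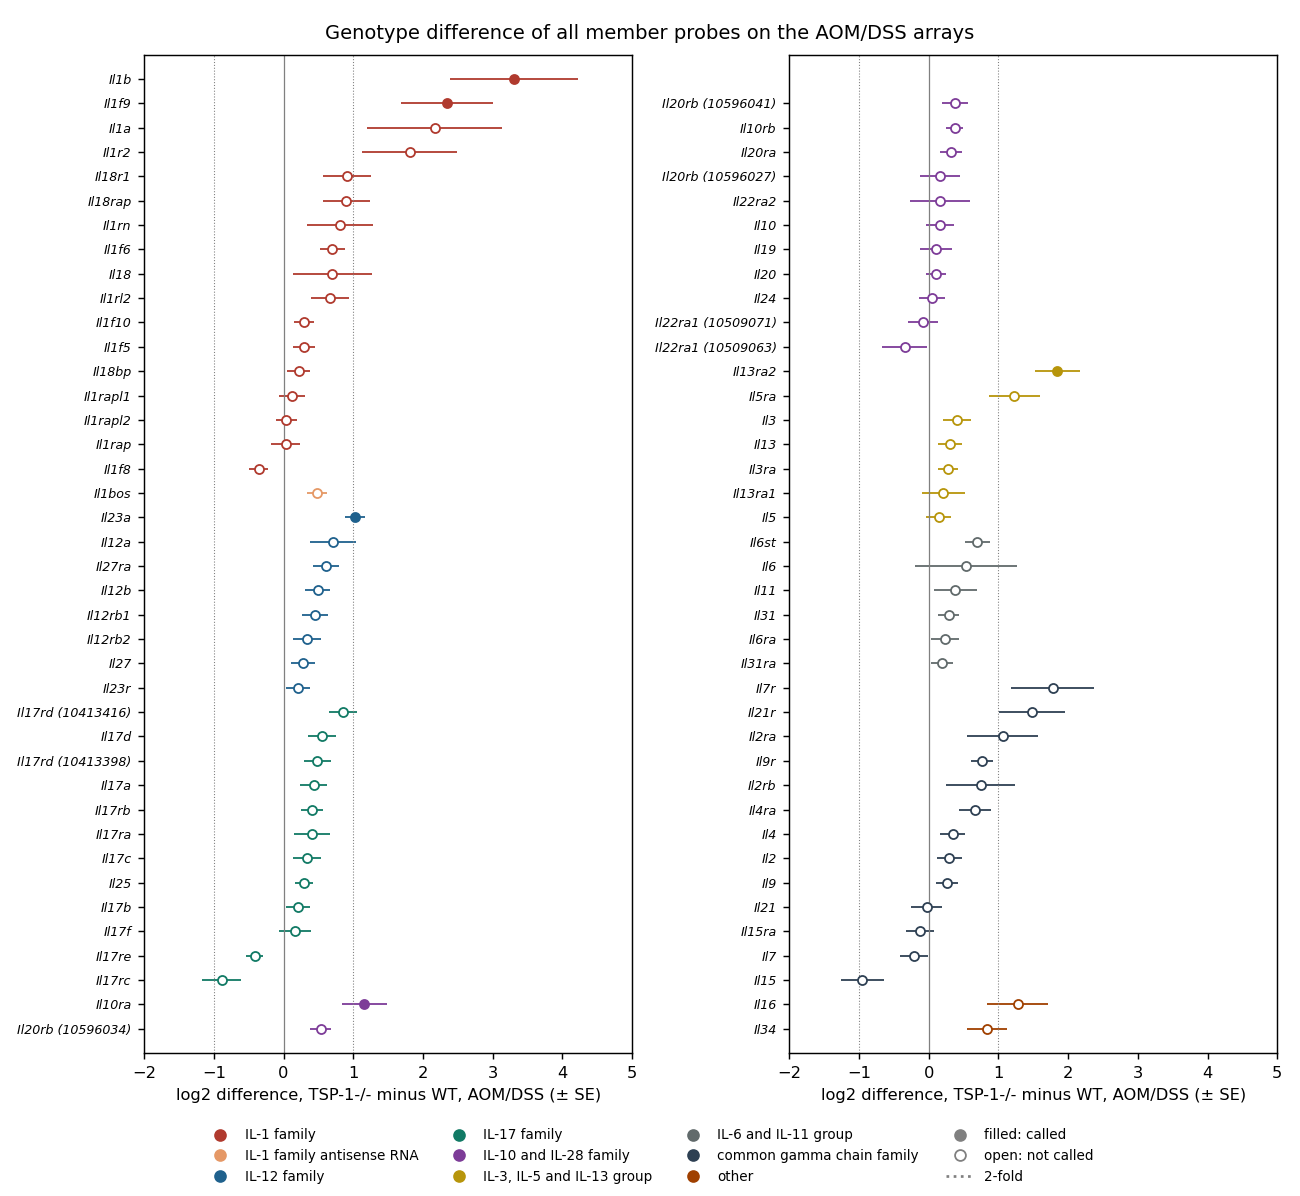
All 79 member probes by family, with the log2 difference TSP-1-/- minus WT on the AOM/DSS arrays on the x axis (bars are the SE of the fit, n = 3 arrays per genotype). Filled points are the 5 called probes, all to the right of 0, and 9 points lie to the left of 0.

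The spread behind these calls was shared with the water arrays. The SD of a probe, pooled over the genotypes, had a median of 0.241 in the AOM/DSS set, against 0.169 for water. For a typical probe the shared spread therefore understates that of the AOM/DSS set, which can make p too small. When the 6 AOM/DSS arrays were fitted alone, 0 members were called, as were 6 of all probes (0.0208%). That fit had both the wider spread and fewer arrays, and their parts were not separated. Without TSP-1-/- AOM/DSS replicate 3, 2 members were called, Il13ra2 and Il23a, and 0.589% of all probes. Without this array and TSP-1-/- water replicate 1 together, 3 were called, with Il1a in addition, and 0.496% of all probes. Across 21 other settings Il13ra2 was called in 18 and Il23a in 14, against 5 for Il10ra and 4 for Il1f9, and Il1b was called in 3 of 20.

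Promoter sequence is shown for the called members that the RefSeq promoter table holds, to set the letters before the start site beside the values. Il23a and Il10ra are named only. The 250 bases before each start site are given 5′ to 3′ on the gene's strand, from RefSeq on GRCm38.p6, at chr2:129371140-129371389 (minus strand) for Il1b, chr2:24186226-24186475 (plus strand) for Il1f9 and chrX:147429193-147429442 (minus strand) for Il13ra2. Capitals mark matches, on either strand, to an AP-1 motif (TGANTCA), STAT motifs (TTC and GAA with 3 or 4 bases of any kind between them) and a kappa B motif (GGG, 2 bases of any kind, then TTTCC).
Il1b: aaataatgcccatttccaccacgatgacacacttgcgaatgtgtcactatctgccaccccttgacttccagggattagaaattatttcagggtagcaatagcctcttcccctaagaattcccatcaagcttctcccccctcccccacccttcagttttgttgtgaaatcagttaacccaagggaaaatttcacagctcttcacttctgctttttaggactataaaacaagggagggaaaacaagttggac
Il1f9: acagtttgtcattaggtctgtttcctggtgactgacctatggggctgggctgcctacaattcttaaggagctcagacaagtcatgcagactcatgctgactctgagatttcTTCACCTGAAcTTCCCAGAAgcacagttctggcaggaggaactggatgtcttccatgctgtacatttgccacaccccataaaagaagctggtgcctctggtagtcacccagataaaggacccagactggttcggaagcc
Il13ra2: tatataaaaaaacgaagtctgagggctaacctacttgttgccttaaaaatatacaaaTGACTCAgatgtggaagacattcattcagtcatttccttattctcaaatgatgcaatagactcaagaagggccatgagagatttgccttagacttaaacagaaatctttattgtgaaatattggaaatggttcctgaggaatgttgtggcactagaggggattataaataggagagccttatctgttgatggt

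In the Il1f9 window the STAT motif with a spacing of 3 bases begins 128 bases before the start site and the one with 4 bases 139 before it. In the Il13ra2 window the AP-1 motif begins 193 bases before the start, and none of the 4 motifs was found in the Il1b window. Over 32851 promoters of this length the AP-1 letters occur in 6.75%, the STAT letters in 7.02% (3-base spacing) and 5.85% (4-base spacing), and the kappa B letters in 1.41%. Over 69 promoters of 58 member genes the shares were 20.3%, 13.0%, 18.8% and 8.70%, in the same order of motifs. Several of these promoters belong to the same gene, and a match is a description of letters.

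The 3 largest differences of all members were those of the IL-1 family ligands Il1b, Il1f9 and Il1a. The 17 probes of the family had a median difference of 0.70 log2 units on the AOM/DSS arrays, 16 were positive, and 2 ligands were called. On the water arrays 15 of the 17 were positive, with a median of 0.18. Il1b, the main inflammatory IL-1 made by myeloid cells, read 2.83, 4.21 and 3.88 on TSP-1-/- AOM/DSS arrays, against 1.82, -0.82 and 0.00 on WT AOM/DSS arrays. All 3 TSP-1-/- values lay above the WT values, and WT replicate 1 was the highest of its group. The difference was 3.31 ± 0.92 (SE), a fold of 9.89, with an adjusted p of 0.0478 by limma. It was 1.58 (adjusted p 0.355) when the 12 arrays were quantile normalised again.

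Il1f9 encodes IL-36 gamma, an IL-1 family ligand of barrier epithelium. It read 1.26, 3.14 and 3.12 on TSP-1-/- AOM/DSS arrays, against 0.49, -0.06 and 0.06 on WT AOM/DSS arrays. The groups did not overlap, with TSP-1-/- replicate 1 nearest to WT. The difference was 2.34 ± 0.65 (SE, fold 5.08, adjusted p 0.0487 by limma), and 1.21 (adjusted p 0.241) after a second quantile normalisation of the 12 arrays. The neighbouring ligand Il1f6, IL-36 alpha, read 0.32, 0.65 and 0.39 against -0.33, -0.04 and -0.37, a difference of 0.70 that passed the adjusted p (0.0411) and not the fold minimum. Il1f8, IL-36 beta, lay the other way, at -0.03, 0.11 and 0.02 on TSP-1-/- arrays and 0.40, 0.13 and 0.64 on WT arrays, with no overlap and no call (adjusted p 0.11).

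Il1a, an alarm cytokine released by damaged cells, read 1.24, 2.44 and 2.29 on TSP-1-/- AOM/DSS arrays and 0.19, -0.61 and -0.12 on WT AOM/DSS arrays. Its difference of 2.17 was not called (adjusted p 0.145). Without TSP-1-/- water replicate 1, which reads 0.51 where the other TSP-1-/- water arrays read -4.58 and -3.89, the same difference had an adjusted p of 0.0158. Leaving out a water array changes the shared spread and not the AOM/DSS difference. Without TSP-1-/- AOM/DSS replicate 3 the Il1a difference was 2.02 (adjusted p 0.297), and without both arrays its adjusted p was 0.0387. Il1r2, the decoy receptor that binds IL-1 without signalling, read 1.54, 2.66 and 1.77 on TSP-1-/- AOM/DSS arrays and 0.85, -0.32 and 0.01 on WT AOM/DSS arrays, a difference of 1.81 (adjusted p 0.0991, and 0.0394 without TSP-1-/- water replicate 1). Il1rn, the IL-1 receptor antagonist, overlapped between the genotypes, with a difference of 0.81 (adjusted p 0.254). The ligand Il18 differed by 0.70 (adjusted p 0.397), with overlap. Il1bos, the antisense RNA over Il1b, differed by 0.48 (adjusted p 0.0565).

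**Figure D2:**
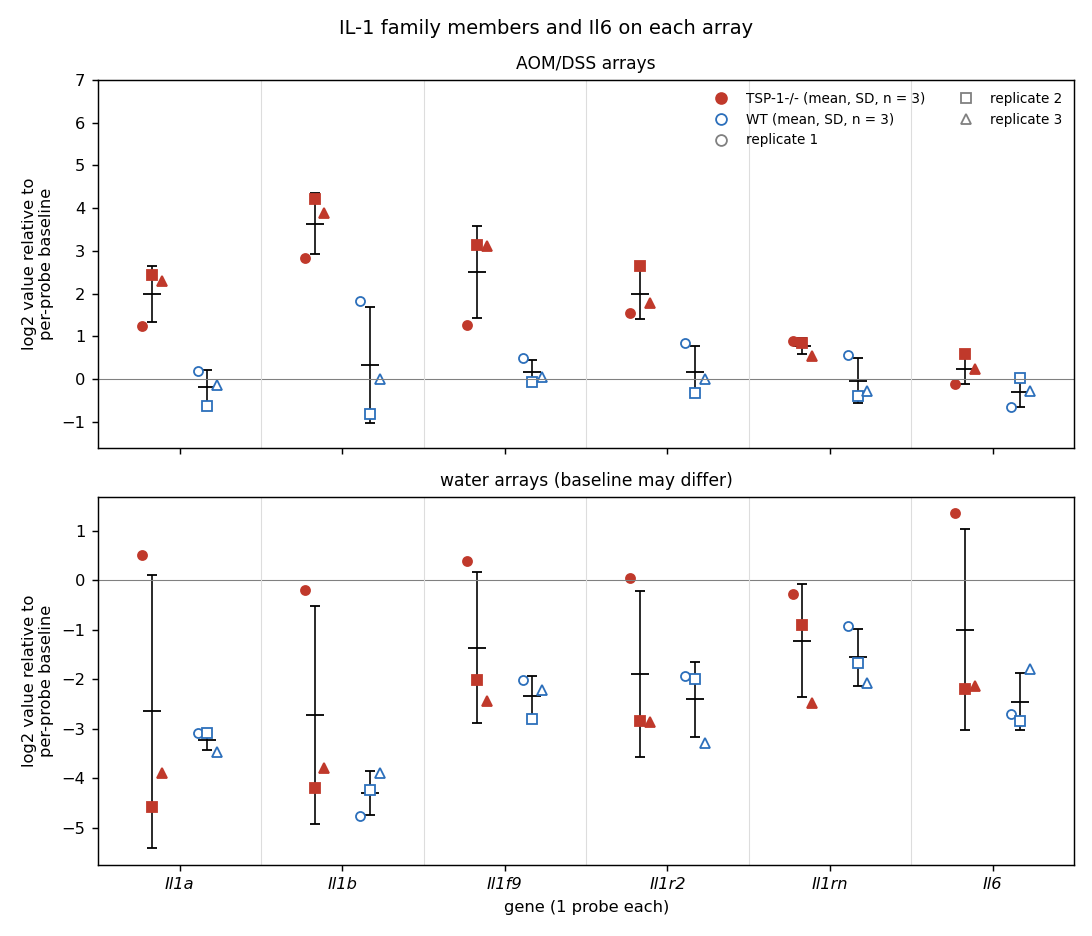
Log2 values of 5 IL-1 family genes and Il6 on each array (AOM/DSS above, water below; TSP-1-/- filled and left, WT open and right; bars are mean and SD, n = 3, and marker shape gives the replicate number). On the AOM/DSS arrays Il1b, Il1f9, Il1a and Il1r2 do not overlap between genotypes, and on the water arrays TSP-1-/- replicate 1 lies far above the other TSP-1-/- arrays for Il1a, Il1b and Il6. The 2 panels appear to have different baselines and are not read against each other.

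Some markers of myeloid cells were called in the same comparison. Of 10 neutrophil markers, Cxcr2 (4.58, adjusted p 0.018) and Csf3r (2.56, adjusted p 0.017) were called higher and 8 were not called, and the list medians were 0.51, 0.35 and 0.72 on TSP-1-/- AOM/DSS arrays against 0.17, -0.51 and -0.46 on WT AOM/DSS arrays. Of 11 macrophage and dendritic cell markers, Lyz2, Msr1, Itgax and Csf1r were called higher and 7 were not called, with list medians of 0.66, 0.56 and 1.54 against 0.07, -0.32 and -0.09. The TSP-1-/- arrays lay above the WT arrays without overlap at 50% of the neutrophil and 72.7% of the macrophage and dendritic cell markers (20.2% of all probes). The part of these cells in the IL-1 family differences was not tested.

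In the IL-12 family all 8 probes were positive on the AOM/DSS arrays, with a median of 0.47 (62.8% of all probes were positive). On the water arrays all 8 were positive too, with a median of 0.13 (49.4% of all probes were positive). Il23a, the subunit particular to IL-23, was the member with the lowest adjusted p. It read 1.07, 1.26 and 1.22 on TSP-1-/- AOM/DSS arrays, against 0.09, 0.18 and 0.20 on WT AOM/DSS arrays, so each group lay within a narrow band and the bands were far apart. The difference was 1.02 ± 0.14 (SE, fold 2.03, adjusted p 0.00672 by limma). It lies just above the fold minimum and fell below it without TSP-1-/- AOM/DSS replicate 2 or without WT AOM/DSS replicate 1 (0.99 each), with adjusted p-values of 0.00805 and 0.00496. After a second quantile normalisation of the 12 arrays it was 0.63 (adjusted p 0.0767). Il12b, the subunit shared by IL-12 and IL-23, differed by 0.49 without overlap (adjusted p 0.087). Il23r, the IL-23 receptor, overlapped between genotypes and differed by 0.21 (adjusted p 0.412).

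In the group of IL-3, IL-5 and IL-13, the 7 probes were positive with a median of 0.30. Il13ra2, a receptor that binds IL-13 and is known as its decoy, read 1.03, 0.80 and 2.08 on TSP-1-/- AOM/DSS arrays, against -0.22, -0.60 and -0.81 on WT AOM/DSS arrays. The groups did not overlap, and TSP-1-/- replicate 3 was the highest array. The difference was 1.85 ± 0.32 (SE, fold 3.60, adjusted p 0.0166 by limma). It was 1.46 (adjusted p 0.0243) with TSP-1-/- AOM/DSS replicate 3 and TSP-1-/- water replicate 1 left out. Without WT AOM/DSS replicate 3 the adjusted p was 0.0691. Il5ra, the IL-5 receptor of eosinophils and B cells, read 1.09, 0.32 and 1.96 on TSP-1-/- AOM/DSS arrays and -0.01, -0.10 and -0.21 on WT AOM/DSS arrays, a difference of 1.23 that missed the threshold (adjusted p 0.0543, and 0.81 with an adjusted p of 0.161 without TSP-1-/- AOM/DSS replicate 3). The ligands Il5 and Il13 differed by 0.14 and 0.30 (adjusted p 0.601 and 0.245).

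Of 12 target genes of IL-4 and IL-13 with a probe, Arg1 and Alox15 were called higher and 10 were not called. The differences of the 12 ran between -1.51 and 2.48, with 8 positive and 4 negative. Arg1, the arginase of alternatively activated macrophages, read 1.02, 1.16 and 2.10 on TSP-1-/- AOM/DSS arrays and -1.06, -0.02 and -0.44 on WT AOM/DSS arrays. The ligand Il4 differed by 0.34 (adjusted p 0.209). Its receptor Il4ra differed by 0.67 (adjusted p 0.0787), with overlap between the genotypes.

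Il10ra, the ligand-binding chain of the IL-10 receptor, was called in the IL-10 and IL-28 family, whose 13 probes had a median of 0.16 with 11 positive. It read 0.79, 0.31 and 1.67 on TSP-1-/- AOM/DSS arrays, against 0.11, -0.68 and -0.14 on WT AOM/DSS arrays. TSP-1-/- replicate 3 was highest, and the groups did not overlap. The difference was 1.16 ± 0.32 (SE, fold 2.23, adjusted p 0.0472 by limma), and 0.79 (adjusted p 0.135) without TSP-1-/- AOM/DSS replicate 3. Il10 itself differed by 0.16 with overlap (adjusted p 0.595). Il22ra2, the soluble IL-22 binding protein, spread over 1.12, -1.11 and 0.72 on TSP-1-/- AOM/DSS arrays, against -0.10, 0.21 and 0.14 on WT AOM/DSS arrays. The 2 probes of Il22ra1, the epithelial IL-22 receptor, differed by -0.34 and -0.08, with overlap at both. The ligand Il24 differed by 0.05 (adjusted p 0.869).

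**Figure D3:**
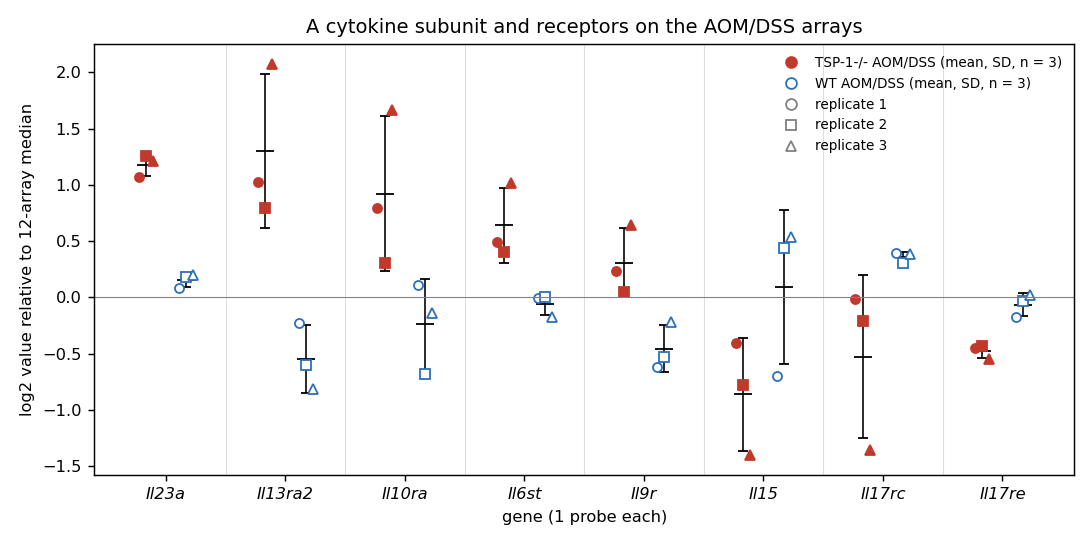
Log2 values of Il23a, Il15 and 6 receptor genes on each AOM/DSS array (TSP-1-/- filled and left, WT open and right; bars are mean and SD, n = 3). Il23a, Il13ra2, Il10ra, Il6st and Il9r are higher in every TSP-1-/- array than in any WT array, and Il17rc and Il17re are lower.

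The IL-17 family had 12 probes with a median of 0.37, 10 of them positive, and none was called. Il17a and Il17f, the ligands of helper T cells and innate lymphoid cells, differed by 0.43 and 0.16 (adjusted p 0.14 and 0.633), each with overlap. Il17rd, a receptor-like protein of the family, differed by 0.85 at 1 of its 2 probes (0.40, 0.56 and 0.66 on TSP-1-/- AOM/DSS arrays, against -0.33, -0.15 and -0.45 on WT AOM/DSS arrays), which passed the adjusted p (0.0326) and not the fold minimum. Its other probe differed by 0.48 (adjusted p 0.113).

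2 receptors of the family lay the other way, and neither was called. Il17rc, which pairs with Il17ra to bind IL-17A and IL-17F, read -0.01, -0.21 and -1.36 on TSP-1-/- AOM/DSS arrays, against 0.39, 0.31 and 0.38 on WT AOM/DSS arrays (-0.89, adjusted p 0.0622, and -0.47 with an adjusted p of 0.133 without TSP-1-/- AOM/DSS replicate 3). Il17re, the epithelial receptor for IL-17C, read -0.45, -0.43 and -0.55 against -0.17, -0.03 and 0.02 (-0.41, adjusted p 0.0557). The epithelium list medians were -0.03, -0.02 and -0.66 on TSP-1-/- AOM/DSS arrays, against 0.20, 0.01 and 0.18 on WT AOM/DSS arrays. The part of the epithelial share in these 2 differences was not tested. Il17ra overlapped between genotypes (0.40, adjusted p 0.292). Of 18 epithelial target genes of IL-17 and IL-22, the antimicrobial Lcn2 (3.25, adjusted p 0.0463) and the neutrophil chemokine Cxcl5 (3.74, adjusted p 0.0447) were called higher. The other 16 were not called, and of the 18 genes 11 differences were positive and 7 negative, between -1.98 for Reg3b and 4.41 with a median of 0.66.

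In the IL-6 and IL-11 group, Il6st, the signalling chain shared by IL-6, IL-11 and oncostatin M, differed by 0.70 (adjusted p 0.0391). It was highest on TSP-1-/- AOM/DSS replicate 3, at 1.02, with the other TSP-1-/- arrays at 0.50 and 0.40 and the highest WT array near 0. Without replicate 3 the difference was 0.51 (adjusted p 0.115). Il6 read -0.10, 0.58 and 0.24 on TSP-1-/- AOM/DSS arrays and -0.65, 0.02 and -0.28 on WT AOM/DSS arrays, with overlap (adjusted p 0.624). Il11 differed by 0.38 (adjusted p 0.394) and Il6ra by 0.23 (adjusted p 0.44). Osmr, the oncostatin M receptor that pairs with Il6st, was called higher (1.38, adjusted p 0.0405), as was Csf2rb2, the receptor chain related to that of IL-3 and IL-5 (1.07, adjusted p 0.0316). These were the 2 called among 13 partner genes, receptors or ligands, that have no Il symbol (1.73% of all probes were called higher). Of the 13, 11 were positive and 2 negative, with a median of 0.58. At 69.2% of them the TSP-1-/- AOM/DSS arrays lay above the WT AOM/DSS arrays without overlap (20.2% of all probes).

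The common gamma chain family, whose receptors serve lymphocytes, had 13 probes with a median difference of 0.34, with 9 positive and none called. Il7r, Il21r and Il2ra read far higher on TSP-1-/- AOM/DSS replicate 3 than on the other AOM/DSS arrays, which did not hold for every receptor of the family. Il7r, the receptor of IL-7 on T cells and innate lymphoid cells, read 0.95, 1.18 and 3.78 on TSP-1-/- AOM/DSS arrays and 0.33, -0.31 and 0.54 on WT AOM/DSS arrays (1.78, adjusted p 0.0731). Il21r, on B cells, T cells and natural killer cells, read 0.76, 0.40 and 2.93 against -0.04, -0.11 and -0.20 (1.48, adjusted p 0.0661). Il2ra, which marks regulatory and activated T cells, read 0.49, 0.43 and 2.52 against 0.98, -0.23 and -0.48 (1.06, adjusted p 0.174). Il16, a lymphocyte chemoattractant outside the families, read 0.68, 0.28 and 2.58 against -0.32, -0.23 and 0.25 (1.28, adjusted p 0.0763). None of these was called.

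TSP-1-/- AOM/DSS replicate 3 lay over 1 log2 unit above the mean of the other TSP-1-/- AOM/DSS arrays at 11 of the 79 probes (13.9%, against 3.19% of all probes). These were Il7r, Il21r, Il2rb, Il16, Il2ra, Il12a, Il18rap, Il18r1, Il5ra, Il13ra2 and Il10ra, counted after their values were seen. The T cell list medians were 0.46, 0.08 and 2.79 on TSP-1-/- AOM/DSS arrays against -0.08, 0.12 and 0.47 on WT AOM/DSS arrays, and 0 of 10 markers were called. The B and plasma cell list medians were 1.77, -0.07 and 3.71 against 0.24, -0.09 and 0.11, with Cd79a and Cd79b called. The pancreatic enzyme genes move with the same array and their part in these receptors was not tested. Without this array the differences were 0.88 for Il7r (adjusted p 0.156), 0.70 for Il21r (adjusted p 0.0673), 0.37 for Il2ra (adjusted p 0.561) and 0.58 for Il16 (adjusted p 0.116).

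**Figure D4:**
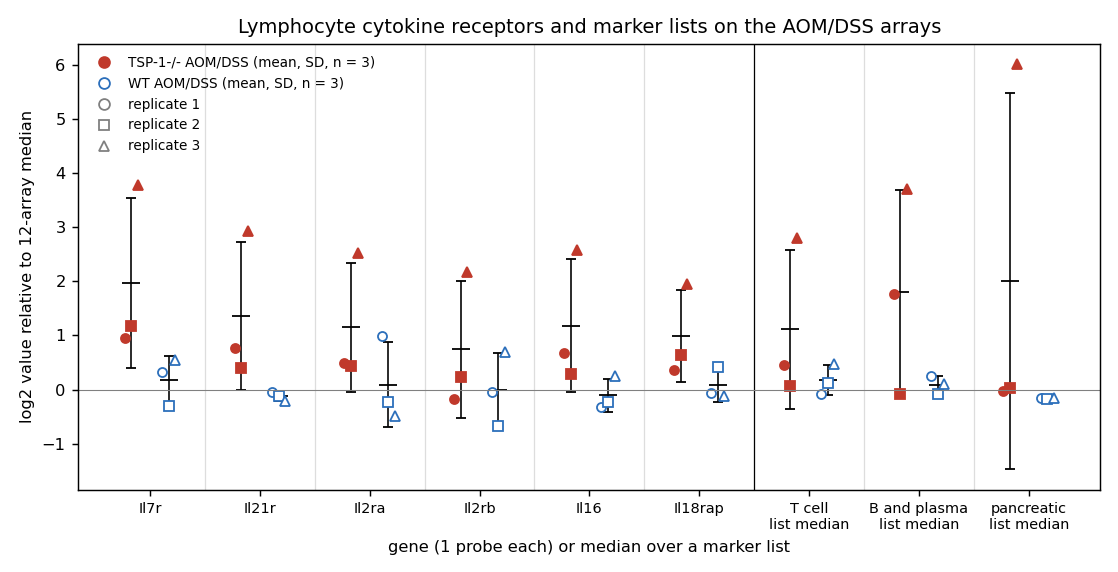
Log2 values of lymphocyte receptors and Il16 on each AOM/DSS array (left of the line), beside the per-array medians of T cell, B and plasma cell and pancreatic marker lists (right of the line; TSP-1-/- filled, WT open; bars are mean and SD, n = 3). TSP-1-/- replicate 3, the triangle, is the highest array for all 6 genes and all 3 lists, with Il2rb and Il18rap drawn after their values were seen.

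Il9r, the IL-9 receptor, read 0.23, 0.05 and 0.64 on TSP-1-/- AOM/DSS arrays and -0.62, -0.53 and -0.22 on WT AOM/DSS arrays. The difference of 0.77 passed the adjusted p (0.0266) and not the fold minimum, and without TSP-1-/- AOM/DSS replicate 3 it was 0.60 (adjusted p 0.0722). Il15, a survival factor of intraepithelial lymphocytes, had the most negative difference of all members (-0.95, adjusted p 0.066, and -0.68 with an adjusted p of 0.212 without TSP-1-/- AOM/DSS replicate 3). It read -0.41, -0.77 and -1.40 on TSP-1-/- AOM/DSS arrays and -0.70, 0.44 and 0.53 on WT AOM/DSS arrays. WT replicate 1 lies among the TSP-1-/- values, and without it Il15 was called lower (-1.35, adjusted p 0.00796), as 4.65% of all probes were called in either direction. Il7, a stromal survival factor, differed by -0.21 without overlap (adjusted p 0.468). Il15ra, which presents IL-15 on cell surfaces, and the T cell cytokine Il21 differed by -0.13 and -0.03, and Il1rap, the accessory chain of the IL-1 receptor, by 0.03, each with overlap between the genotypes.

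Signalling genes that many interleukins share were examined next. Of 9 JAK and STAT genes with a probe, Stat4, which carries the signals of IL-12 and IL-23, was called higher (2.04, adjusted p 0.0348), and its values of 1.50, 0.77 and 3.51 on TSP-1-/- AOM/DSS arrays were again highest on replicate 3, without which the difference was 1.25 (adjusted p 0.0259). None of 8 SOCS feedback inhibitors was called, none of 18 IL-1 and IL-17 adaptors and NF-kB genes was called, and none of 9 other helper T cell cytokines. Median differences of these lists were 0.15 for the JAK and STAT genes, -0.03 for the SOCS probes, 0.05 for the adaptors and 0.60 for the other cytokines. Among the remaining marker lists on the AOM/DSS arrays, 1 of 11 mast cell genes was called higher (Fcer1a, 1.91) and 1 lower (Kit, -1.26). Of these 11 genes, 10 were positive and 1 negative, with a median of 0.86. In the fibroblast and smooth muscle list, 1 of 10 genes was called higher (Col1a1, 1.30), with 6 positive and 4 negative (median 0.53). None of 9 transcription factors of helper T and innate lymphoid cells, none of 6 endothelial genes and none of 8 pancreatic enzyme genes was called. All 6 endothelial genes were nevertheless positive (median 0.65), and at all 6 the TSP-1-/- arrays lay above the WT arrays without overlap (100%, against 20.2% of all probes). This share was 22.2% of the transcription factors, 37.5% of the pancreatic genes, 36.4% of the mast cell genes and 50% of the fibroblast and smooth muscle genes. Of all called genes of the pathway and marker lists, Stat4, Arg1 and Col1a1 were still called without TSP-1-/- AOM/DSS replicate 3, and the others were not (adjusted p 0.0508 to 0.148).

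On the water arrays, 0 of 79 members were called, and so were 0 of 28815 probes. The difference was positive for 59 members (74.7%, against 49.4% of all probes), and at an unadjusted p under 0.05 the limma fit gave 1 member, Il11 (0.81, p 0.021 in the limma fit), and 288 of all probes (0.999%). The genotypes did not overlap at Il20ra and Il15, which were higher in TSP-1-/- colons (2.53%, against 2.29% of all probes), and at Il1rapl1, which was lower (1.27%, against 2.88% of all probes).

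TSP-1-/- water replicate 1 stood apart among the members too. It lay over 1 log2 unit above the mean of the other TSP-1-/- water arrays at 7 of 79 members (8.86%, against 0.944% of all probes), which were Il1a, Il1b, Il6, Il1r2, Il1f9, Il1rn and Il5ra. Il1b read -0.19, -4.20 and -3.80 on TSP-1-/- water arrays, against -4.76, -4.24 and -3.89 on WT water arrays. Il6 read 1.35, -2.19 and -2.14 against -2.71, -2.84 and -1.80, and Il1a 0.51, -4.58 and -3.89 against -3.09, -3.09 and -3.47. The Il1b difference on water was 1.57, and 0.30 without that array. The epithelial target genes of IL-17 and IL-22 had list medians of 0.33, -0.17 and -1.51 on TSP-1-/- water arrays and -1.38, -1.16 and -1.99 on WT water arrays, so TSP-1-/- replicates 1 and 2 both lay above the other water arrays for this list.

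The genotype differences of the 2 array sets were compared by the difference of the differences, where 0 members were called and 2 of all 28815 probes were (0.00694%). The value was positive for 64 members (81.0%, against 62.6% of all probes), and at an unadjusted p under 0.05 there were 11 members (13.9%, against 15.4% of all probes). The lowest adjusted p among members was 0.177, for Il23a (0.87) and for the Il17rd probe that passed the adjusted p on AOM/DSS (1.27). The differences on AOM/DSS are therefore not shown to differ from those on water. Without WT AOM/DSS replicate 1, 1 member was called in this test, Il15 (-1.73, adjusted p 0.0319). With all arrays it was -1.34 (adjusted p 0.251), and in the other settings its adjusted p ran from 0.157 to 0.537. Leaving out this array also raised the share of all probes called on AOM/DSS to 4.65%, against 2.78% with all arrays.

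**Figure D5:**
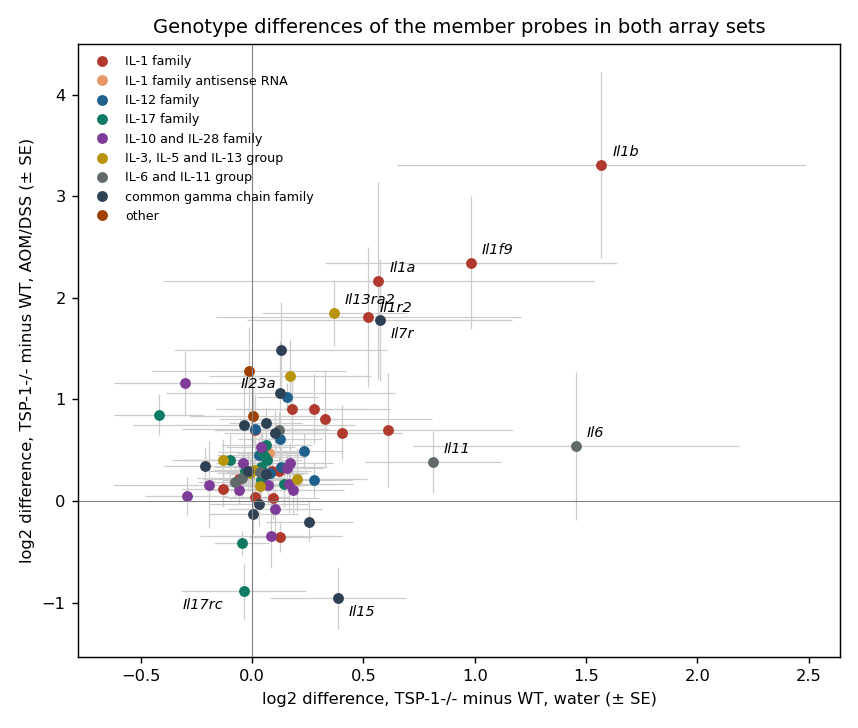
Each of the 79 member probes by its log2 difference TSP-1-/- minus WT on water (x axis) and on AOM/DSS (y axis), with SE bars of the fit and colour by family. Il1b is highest on both axes, and Il15 and Il17rc lie below 0 on AOM/DSS.

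The AOM/DSS values are relative to a median over 12 arrays, which the 6 water arrays do not appear to share, so treatment was not tested against water. On all 6 AOM/DSS arrays Il23a lay above that median (1.27% of members, against 2.02% of all probes), and Il19 and Il1rapl1 lay below it (2.53% of members, against 4.02% of all probes). In these values the treatment cannot be told apart from the array set.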

How the data were processed

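Values were used as deposited. The authors made them from Affymetrix MoGene 1.0 ST signals with PLIER16 and quantile normalization, as log2 values relative to the median of 12 samples. The genome build is not given in the sources used here. The 6 water arrays appear to carry another baseline, since pairs of values mirrored about 0 (within 1e-05) occur in 6.72% of their probes, against 20.2% on the AOM/DSS arrays and 22.7% expected for a median of 12. No signal intensity is kept, so detection above background could not be judged. Symbols come from the platform annotation, where 21789 of 28853 probes have 1 symbol, 1621 several and 5443 none, and 28815 have values on all arrays. 3 probes with several symbols, 1 of them an interleukin, were not used.

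limma 3.58.1 in R 4.3.3 fitted 1 mean per group over 12 arrays, with Benjamini-Hochberg adjustment over all probes. The study's methods name an analysis of variance with the same adjusted p and fold minimum. Replicate numbers were checked for pairing, by correlations between deviations of TSP-1-/- and WT arrays from their group means. On AOM/DSS these were 0.03, -0.04 and -0.02 for equal numbers and -0.02 to 0.05 for unequal ones, so the numbers did not pair those arrays. On water they were 0.09, 0.28 and 0.40 for equal numbers, against -0.38 to 0.18 for unequal ones. Whether the water arrays are paired by number is not known, and the main fit holds no pairing. Simulated data of 28853 probes held 100 probes changed by each of log2 1.5, 2 and 3. Of these, 87%, 97% and 100% were called in the AOM/DSS comparison, with 28 unchanged probes called. The changed probes were picked at random, and the noise was independent with 1 SD per probe in each array set, so no simulated array stood apart. These shares do not hold for members with a wide spread, such as Il1a (2.17 ± 0.97 SE, not called).

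The text names every member called or with an adjusted p under 0.05, those with the largest and smallest differences (10 and 10 on AOM/DSS, 5 and 5 on water), 31 listed genes, and the called genes of each pathway or marker list. The members, lists, rule and alternatives were chosen with earlier results of these data known. Tables were handled in Python 3.11.15 with pandas 2.3.3 and numpy 2.4.6.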

Additional observations from a re-analysis of the deposited data

How the results depend on the processing

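The number of members called on the AOM/DSS arrays, 5 (2.78% of all probes were called), depended on the settings, and the share of all probes called in the same setting is given beside each count. It was 0 with only the 2 groups of the comparison in the fit (0.0208%), 1 after quantile normalization of the 12 arrays again (0.634%), 2 after quantile normalization within each array set (2.25%), 1 with each array centred on its median (2.81%), 1 with array weights (1.32%), 1 with an unmoderated test (0.163%), 9 with no fold minimum (8.30%) and 9 with a 1.5-fold minimum (6.99%). It was 4 of 77 with the variability filter of the study's methods (2.94%), where Il1b was not tested. With the replicate number as a block (replicate block) it was 3 (2.06%), while the numbers do not pair the AOM/DSS arrays. Leaving out each array in turn gave 1 to 7, the 1 without WT AOM/DSS replicate 3 (0.36%) and the 7 without TSP-1-/- AOM/DSS replicate 2 (4.86%). With replicate 3 of TSP-1-/- AOM/DSS and replicate 1 of TSP-1-/- water left out together, which was chosen after seeing the data, it was 3 (0.496%). The count on water stayed at 0 in all alternatives run, and the count of the difference of the differences was 0 in all but 1, with leave-one-out values from 0 to 1. Of 2660 values of named members under the alternatives, 2588 stayed on their side of the thresholds, 60 lost the call, 12 gained it and 0 called values changed sign, while 109 uncalled values changed sign. Most of the 2660 were not called in the main fit, so the 2588 say little about how stable the calls are. The 60 lost calls are those of the 5 called members. Il13ra2 kept its call in 18 of 21 settings, Il23a in 14, Il10ra in 5 and Il1f9 in 4, and Il1b in 3 of 20. The number of arrays limits the precision, and no background signal was kept to judge dim probes.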
